A study of Mus musculus with 6 samples.

Results

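The expression of 10 mouse genes of the unfolded protein response and the integrated stress response was compared between control and CTCF-knockdown cultures labelled as female germline stem cells (FGSCs). The genes were Atf4, Atf3, Ddit3, Chac1, Asns, Trib3, Ppp1r15a, Xbp1, Hspa5 and Herpud1, which were taken by symbol from the 24732 symbols of the FPKM table and looked up again among the 24813 symbols of the count table. FPKM is the number of fragments scaled to transcript length and to the mapped fragments of the library, so that levels of different genes can be set side by side per length. The study asked whether CTCF, a DNA-binding protein that organises chromatin loops and domains, is needed for the properties of these cells.

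All 6 cultures were of strain C57BL/6, had passed through more than 20 passages and were grown on mitotically inactivated STO fibroblasts as feeders. The methods of the study derive the FGSCs from ovaries of neonatal Ddx4-Cre; mT/mG mice, in which Cre is driven by a germ cell gene. The shCTCF group (3 samples) was infected with a lentivirus that carried 1 short hairpin RNA against Ctcf and was selected with puromycin. What the control group (3 samples) received is not given in the sources used here, so the effects of virus and selection cannot be told apart from those of the knockdown. Nothing in the labels says that replicates came from separate cultures or animals, and the p-values therefore measure the spread between these samples, which may be technical.

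Cells meet unfolded protein in the endoplasmic reticulum (ER) with sensors in the ER membrane, the kinase PERK (Eif2ak3), the kinase and RNase IRE1 (Ern1) and the transcription factor precursor ATF6. PERK shares its target, the translation factor eIF2alpha, with kinases that sense amino acid shortage (GCN2, Eif2ak4), double-stranded RNA (PKR, Eif2ak2) and haem shortage (HRI, Eif2ak1), and their common pathway is called the integrated stress response. Phosphorylated eIF2alpha slows translation in general while the mRNA of ATF4 is translated more, and ATF4 induces genes for amino acid supply and further transcription factors such as ATF3 and CHOP (Ddit3), whereas IRE1 activates XBP1 by splicing its mRNA. Much of this control acts on protein and phosphorylation, which were not measured here.

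The regulatory sequences of the pathway are shown for 4 of the genes, because Asns, Atf3 and Herpud1 carry the short composite element to which ATF4 binds with C/EBP proteins and Hspa5 carries the ER stress element, and because these genes moved in different directions. The 150 bases before the start of each gene are given 5′ to 3′ on the strand of the gene, from RefSeq promoters of GRCm38.p6, and the same letters stand in mm9, the build of the files, at the positions given. Capitals mark the element.
Asns, mm9 chr6:7643210-7643359, minus strand: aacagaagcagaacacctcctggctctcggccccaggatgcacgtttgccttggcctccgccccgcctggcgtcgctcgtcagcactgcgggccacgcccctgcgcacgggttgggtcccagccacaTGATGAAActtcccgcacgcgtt
Atf3, mm9 chr1:193007213-193007362, minus strand: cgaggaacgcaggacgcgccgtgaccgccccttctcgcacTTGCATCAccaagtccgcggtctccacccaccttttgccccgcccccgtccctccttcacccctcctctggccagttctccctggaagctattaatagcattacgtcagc
Herpud1, mm9 chr8:96910179-96910328, plus strand: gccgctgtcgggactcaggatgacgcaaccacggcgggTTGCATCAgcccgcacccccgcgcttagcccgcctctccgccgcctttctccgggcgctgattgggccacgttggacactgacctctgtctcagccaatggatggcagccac
Hspa5, mm9 chr2:34627460-34627609, plus strand: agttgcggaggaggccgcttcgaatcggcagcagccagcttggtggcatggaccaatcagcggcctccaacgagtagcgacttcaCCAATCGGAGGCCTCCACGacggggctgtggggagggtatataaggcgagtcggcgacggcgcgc

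All 10 genes had a promoter in the table, and both strands of the 300 bases from 250 before to 50 after each start were searched. The ATF4 element, TGATGNAA, was found in 5 of the 10 promoters (Asns, Atf3, Chac1, Trib3 and Herpud1) and in 3.97% of the 32851 promoters of the table. In Atf3 and Herpud1 it stands on the opposite strand and therefore reads as its reverse complement above. The ER stress element, CCAAT and CCACG with 9 bases between them, was found in 1 of the 10 (Hspa5) and in 0.119% of all promoters. Its CCACG letters alone, which also lie within the full element, were found in 6 of the 10 and in 32.8% of all. Forms of the element with another spacing or orientation were not searched. In Herpud1 a CCACG starts at position -46, with ATTGG, the reverse complement of CCAAT, just before it. How many of the other promoters hold this form was not counted. The cyclic AMP response element TGACGTCA was found in 1 (Ppp1r15a, against 1.79% of all), and TGACGTGG, an XBP1 and ATF6 element, in 0 (against 0.676% of all). These matches describe letters and are not measurements of binding.

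The libraries held 1686052 to 7044272 counted fragments, and 9639 to 9937 genes per sample reached 1 FPKM. Control replicate 2 was the smallest library and differed from the other controls by more than they did from each other (chi-square per degree of freedom 8.18 and 7.43 against 2.88). Ctcf itself stood at 58.2, 56.1 and 53.5 FPKM in control replicates 1, 2 and 3 and at 0.74, 0.55 and 0.629 FPKM in shCTCF, a decrease of 98.9% in the mean. No fragment was counted for Ctcf in any sample of the count table, so this decrease rests on FPKM alone. Over all genes, the log2 fold change on FPKM had a median of -0.17, which became -0.01 after samples were brought to equal medians, a shift smaller in size than the log2 fold change of any of the 10 genes. The labelled cell type was checked against its markers. Ddx4, Pou5f1, Dppa3, Gfra1 and Dazl were listed at 0 FPKM in all controls and 2 of 8 FGSC markers reached a mean of 1 FPKM, which goes against the label. The summed FPKM of the 8 FGSC markers was 19.5 to 19.8 in controls and 24.9 to 26.2 in shCTCF, where Ifitm3, which interferon induces, was higher (0.737 ± 0.646 to 10.8 ± 0.327) and Etv5 (17.3 ± 0.569 to 14.2 ± 0.194) and Zbtb16 (1.56 ± 0.422 to 0.288 ± 0.00602) were lower. The 19 markers of feeder fibroblasts summed to 12.9 to 13.7 in controls and 23.8 to 25 in shCTCF, with 4 of them, not the same genes, at a mean of 1 FPKM or more in each group and Col3a1, Col5a2, Lum and Loxl1 listed at 0 in every sample. Col6a1 was the marker that carried the higher sum (0.144 ± 0.0488 to 15.3 ± 0.38). Pdgfra (1.13 ± 0.53 to 4.16 ± 0.209) and Thy1 (0.382 ± 0.219 to 2.02 ± 0.123) were also higher. Pdgfrb (6.09 ± 0.799 to 2.16 ± 0.146), Dcn (2.71 ± 0.107 to 0 in every sample) and Fn1 (2.22 ± 0.111 to 0.0266 ± 0.00288) were lower. The 15 markers of mast and myeloid cells summed to 1842 to 1891 in controls and 2451 to 2571 in shCTCF, with 10 and 11 of them at a mean of 1 FPKM or more, and Fcer1a was listed at 0 in every sample. These markers also moved in opposite directions, with Srgn (174 ± 44.4 to 770 ± 30.6) and Kit (575 ± 35.8 to 787 ± 14.4) higher and Cpa3 (281 ± 56.7 to 88 ± 13.1) and Ctsg (151 ± 19.4 to 2.22 ± 0.278) lower. Hdc (4.25 ± 0.219 to 87.2 ± 7.58), Tpsab1 and Cma1 were higher as well, while the groups overlapped for Gata2, Ptprc, Spi1 and Mitf. The part of these differences in the results below was not tested, and in such bulk samples a change in the share of a cell type cannot be told apart from a change of RNA per cell.

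After the knockdown, the stress response genes did not move together. Genes of the list passed the test on FPKM in either direction, with Atf3 rising about 10-fold and Ppp1r15a, Ddit3, Xbp1 and Hspa5 rising less, while Asns, Herpud1 and Atf4 fell and Chac1 did not pass. All 10 genes passed the filter of a mean of 1 FPKM, and 9 of them passed the threshold of an adjusted p under 0.05 in limma (6 higher and 3 lower). Among all 9976 genes tested, 73.0% passed in either direction, 28.8% as higher and 44.2% as lower in shCTCF, so that passing the test was common in these libraries. The groups did not overlap for 8 of the 10 genes, as for 76.6% of all genes tested. A log2 fold change of at least 1 in size together with the threshold was found for 4 of the 10, against 26.2% of all. The median log2 fold change of the 10 genes was 0.50 against -0.17 for all genes.

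**Figure D1:**
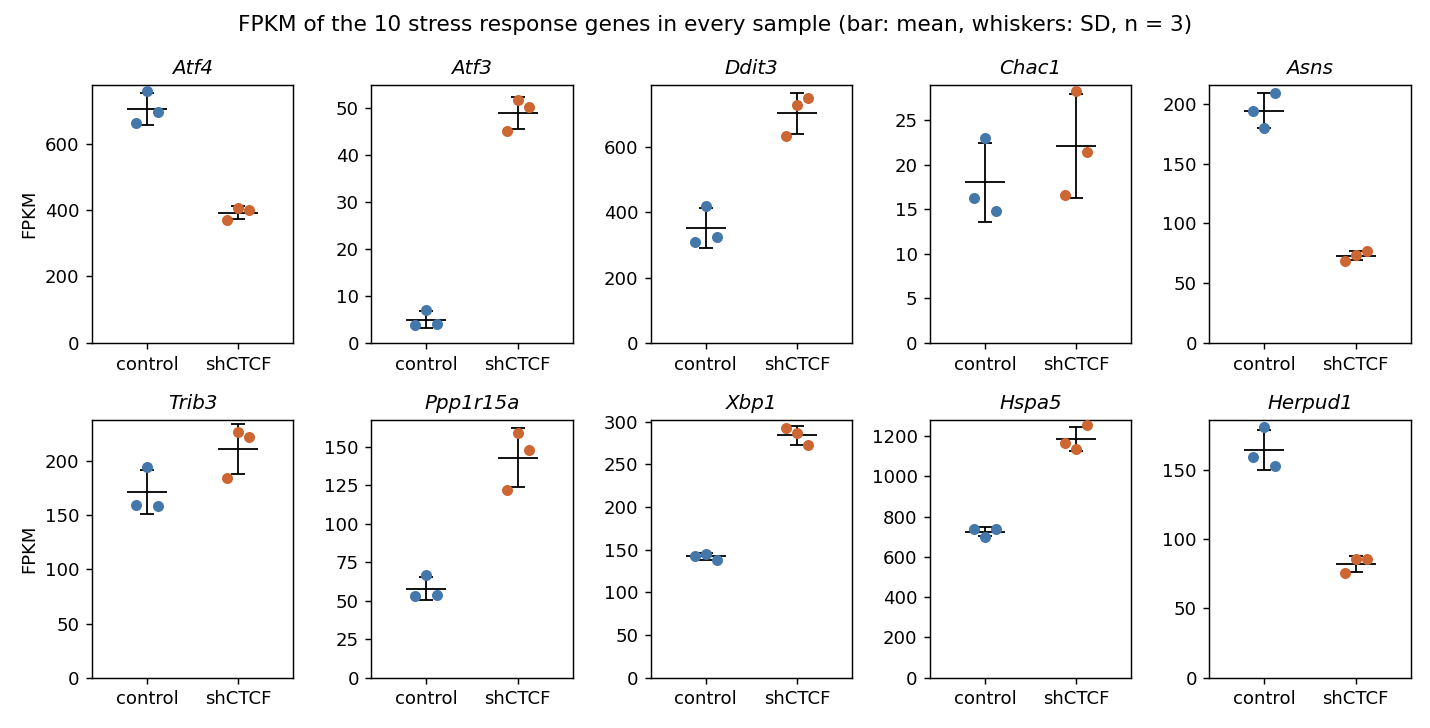
FPKM of the 10 stress response genes in each of the 3 control and 3 shCTCF samples (points), with the mean (bar) and SD (whiskers, n = 3) of each group, each panel on its own axis from 0. The groups overlap for Chac1 and Trib3 and are separate for the other 8 genes.

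Atf4 (mm9 chr15:80085614-80087975, plus strand) encodes the transcription factor at the centre of the integrated stress response. Its level was 662, 757 and 696 FPKM in control replicates 1, 2 and 3 and 371, 405 and 401 FPKM in shCTCF. Every shCTCF sample lay below every control. The mean fell from 705 ± 47.9 to 392 ± 19 FPKM (SD, n = 3), a change of -44.4%, with a log2 fold change of -0.84 ± 0.07 on the log2(FPKM + 1) scale (SE, limma adjusted p = 1.7e-05). In the controls Atf4 was at the 99th percentile of levels among the genes tested. Its accessions share 83.6% and 100% of their exon bases, and no more than 6 fragments per sample were counted, so the count table gave no test.

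Atf3 (chr1:192994176-193007212, minus strand, 4 exons) encodes a stress-induced transcription factor of the same bZIP class. The level of Atf3 was 3.76, 6.95 and 4 FPKM in the controls and 45, 51.6 and 50.1 FPKM in shCTCF. All shCTCF samples were far above the controls, and control replicate 2 was the highest control. The mean rose 9.97-fold, from 4.9 ± 1.77 to 48.9 ± 3.47 FPKM, and the log2 fold change of 3.12 ± 0.19 (limma adjusted p = 3.6e-06) was at the 98.6th percentile of all genes. Counted fragments went from 87, 44 and 109 to 930, 984 and 1213, and edgeR gave a log2 fold change of 3.59 ± 0.16 (adjusted p = 1.7e-09). Atf3 has 1 accession with no exon base shared with another, so both tables measure the same transcript. Within each sample, Atf3 stood at 0.00568, 0.00918 and 0.00575 of the FPKM of Atf4 in the controls and at 0.121, 0.127 and 0.125 in shCTCF.

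Ddit3 (chr10:126727849-126733344, plus strand) encodes CHOP, a transcription factor associated with cell death under lasting ER stress. Ddit3 measured 309, 421 and 325 FPKM in the controls and 633, 729 and 751 FPKM in shCTCF, with no overlap between the groups. The mean doubled from 352 ± 60.7 to 704 ± 63 FPKM, and the log2 fold change was 1.01 ± 0.12 (limma adjusted p = 1.7e-04). Part of this rise was assigned to an accession, NM_001290183, that was listed at 0 in all controls and at 94.5, 95.6 and 106 FPKM in shCTCF, while NM_007837 alone rose from 309, 421 and 325 to 538, 634 and 645 FPKM. The count table did not show the rise. It held 28, 7 and 33 fragments in the controls and 28, 29 and 24 in shCTCF, which gave a log2 fold change of 0.20 ± 0.27 in edgeR (adjusted p = 0.532). These fragments come from the small rest of the gene, since 94.5% of the exon bases of NM_007837 are shared with another accession and fragments over shared bases were not assigned. Exons of Mars1 overlap Ddit3 on the opposite strand, and the counts were made without use of the strand. Per sample, the ratio of Ddit3 to Atf4 went from 0.466, 0.557 and 0.467 in the control group to 1.71, 1.8 and 1.87 in shCTCF.

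Xbp1 (chr11:5420644-5425996, plus strand) encodes the transcription factor that IRE1 activates by removing a short intron from its mRNA. The intron is shown because the spliced and unspliced transcripts differ by it alone and appear as separate accessions in the files. In capitals are the 26 bases of the intron, mm9 chr11:5424285-5424310 on the plus strand, with 15 bases of exon on each side.
Xbp1 intron removed by IRE1: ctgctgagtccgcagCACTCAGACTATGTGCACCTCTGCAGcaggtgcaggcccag

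The level of Xbp1 was 143, 145 and 138 FPKM in the controls and 293, 286 and 272 FPKM in shCTCF. The samples of each group lay close together, and the groups were well apart. The mean rose from 142 ± 3.93 to 283 ± 10.8 FPKM, 1.99-fold, with a log2 fold change of 0.99 ± 0.06 (limma adjusted p = 2.9e-06). All of it was assigned to the unspliced accession NM_013842, and the spliced accession NM_001271730 was listed at 0 in all 6 samples. The accessions share 98.8% and 100% of their exon bases, Cufflinks divides fragments between such accessions by estimate, and a 0 can be a failed estimate, so the share of spliced Xbp1 is not known from these values. No fragment was counted for Xbp1 in the count table.

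**Figure D2:**
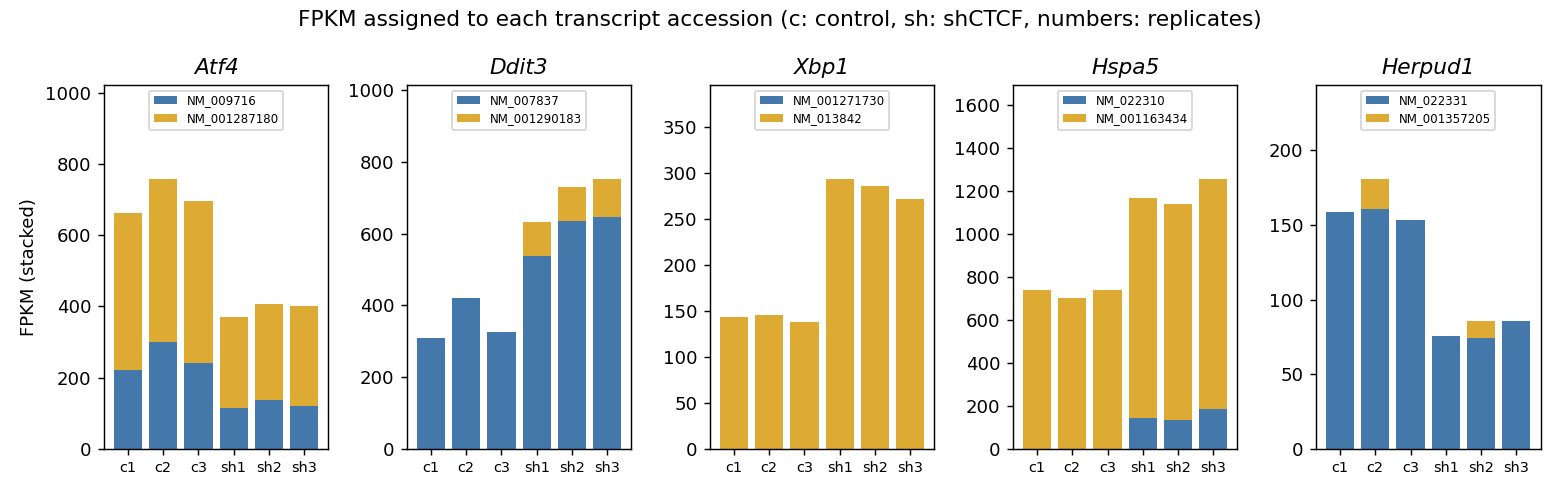
FPKM assigned to each RefSeq transcript accession (stacked bars from 0) of the 5 genes with 2 accessions, in control (c1 to c3) and shCTCF (sh1 to sh3) samples. NM_001290183 of Ddit3 and NM_022310 of Hspa5 are listed at 0 in the controls and above 90 FPKM in shCTCF, and the spliced accession of Xbp1 is listed at 0 in every sample.

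Asns (chr6:7625165-7643209, minus strand, 12 exons) encodes asparagine synthetase, a classical target of ATF4 through the element printed above. The level of Asns was 194, 180 and 209 FPKM in the controls and 68.9, 73.5 and 76.9 FPKM in shCTCF. All 3 shCTCF samples lay well below the lowest control. The mean fell from 194 ± 14.5 to 73.1 ± 4 FPKM, 2.66 times lower, and the log2 fold change of -1.40 ± 0.08 (limma adjusted p = 2.1e-06) was at the 6.75th percentile of all genes. Counts of 4798, 1175 and 5557 in the controls and 1557, 1499 and 2024 in shCTCF corresponded to 702 ± 50.7 and 301 ± 15.2 CPM (counts relative to the TMM-normalized depth of each library). In edgeR the log2 fold change was -1.23 ± 0.08 (adjusted p = 3.7e-08). Asns was thus the most strongly lowered of the 10 genes in limma and the 1 lowered gene in edgeR.

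Trib3 (chr2:152163161-152169796, minus strand) encodes a pseudokinase that is induced by ATF4 and CHOP and restrains ATF4. The level of Trib3 was 160, 195 and 159 FPKM in the controls and 185, 227 and 222 FPKM in shCTCF. Control replicate 2 lay above shCTCF replicate 1, so the groups overlapped. The mean was 172 ± 20.5 FPKM in controls and 211 ± 23.1 FPKM in shCTCF, and the log2 fold change of 0.30 ± 0.11 passed narrowly (limma adjusted p = 0.0377). The limma call was lost without control replicate 1, control replicate 3, shCTCF replicate 2 or shCTCF replicate 3, with adjusted p of 0.103, 0.112, 0.131 and 0.121. The counts of Trib3 did not overlap after scaling, at 596 ± 60 CPM in controls and 836 ± 86.2 CPM in shCTCF, and edgeR gave a log2 fold change of 0.49 ± 0.09 (adjusted p = 4.7e-04). With the samples brought to equal medians the log2 fold change of Trib3 on FPKM was 0.48 (limma adjusted p = 0.00488). Trib3 and Asns share the ATF4 element but not the direction of their estimates. The ratio of Asns to Trib3 went from 1.21, 0.923 and 1.31 in the control group to 0.372, 0.324 and 0.346 in shCTCF.

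Chac1 (chr2:119176978-119180062, plus strand, 3 exons) encodes an enzyme that degrades glutathione and is induced through ATF4. The level of Chac1 was 16.2, 23 and 14.8 FPKM in the controls and 16.6, 28.2 and 21.4 FPKM in shCTCF. Control replicate 2 was higher than shCTCF replicates 1 and 3, and the groups overlapped. The means were 18 ± 4.41 and 22 ± 5.84 FPKM, with a log2 fold change of 0.27 ± 0.21 that did not pass (limma adjusted p = 0.282). On counts the levels, 47.8 ± 11.4 and 65.2 ± 16.3 CPM, overlapped as well, but edgeR gave a log2 fold change of 0.52 ± 0.19 past the threshold (adjusted p = 0.0269). That edgeR call was lost without control replicate 1, control replicate 3, shCTCF replicate 2 or shCTCF replicate 3, with adjusted p of 0.0926, 0.133, 0.153 and 0.0769. Without shCTCF replicate 2 the log2 fold change of Chac1 was 0.32 on counts and 0.09 on FPKM. Chac1 was also past the threshold in DESeq2 (adjusted p = 0.0126).

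Ppp1r15a (chr7:52778288-52781638, minus strand, 3 exons) encodes GADD34, the subunit that directs a phosphatase to eIF2alpha and so ends the response. The level of Ppp1r15a was 53, 66.5 and 54 FPKM in the controls and 122, 159 and 148 FPKM in shCTCF. Every shCTCF sample was above every control. The mean rose 2.48-fold, from 57.8 ± 7.47 to 143 ± 18.9 FPKM, with a log2 fold change of 1.29 ± 0.12 (limma adjusted p = 3.9e-05). Counts rose from 227 ± 24.6 to 639 ± 78.6 CPM, a log2 fold change of 1.51 ± 0.10 (edgeR adjusted p = 8.7e-08). Its overlap with Tulp2 on the opposite strand covers 0.429% of its exon bases. After Atf3, Ppp1r15a had the largest rise of the 10 genes in either table.

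Hspa5 (chr2:34627610-34632049, plus strand) encodes BiP, the main Hsp70 chaperone of the ER and the textbook target of the ER stress element. The level of Hspa5 was 738, 700 and 738 FPKM in the controls and 1168, 1138 and 1254 FPKM in shCTCF. The groups did not overlap. The mean rose 1.64-fold, from 725 ± 21.9 to 1187 ± 60.4 FPKM, with a log2 fold change of 0.71 ± 0.06 (limma adjusted p = 1.8e-05). As in Ddit3, part of the rise was assigned to an accession listed at 0 in the controls, NM_022310, at 145, 133 and 187 FPKM in shCTCF. The accession seen in every sample, NM_001163434, itself went from 738, 700 and 738 to 1023, 1005 and 1067 FPKM. Hspa5 was the most abundant of the 10 genes, at the 99.1th percentile of control levels.

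Herpud1 (chr8:96910329-96919271, plus strand) encodes an ER membrane protein that helps to assemble the machinery of ER-associated degradation. The level of Herpud1 was 159, 181 and 153 FPKM in the controls and 75.6, 85.5 and 85.8 FPKM in shCTCF. A minor transcript took 19.6 FPKM in control replicate 2 and 11.1 FPKM in shCTCF replicate 2 and was listed at 0 elsewhere. The main transcript alone went from 159, 161 and 153 FPKM to 75.6, 74.4 and 85.8 FPKM. All shCTCF samples lay below all controls. The mean fell from 164 ± 14.5 to 82.3 ± 5.79 FPKM, 1.99 times lower, with a log2 fold change of -0.99 ± 0.09 (limma adjusted p = 2.3e-05). Hspa5 and Herpud1, both genes of the ER, therefore moved in opposite directions, and the ratio of their FPKM went from 4.64, 3.88 and 4.82 in the controls to 15.4, 13.3 and 14.6 in shCTCF. No fragment was counted for Hspa5 or Herpud1 in the count table, since nearly all of their exon bases are shared between accessions.

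On counts, 6 of the 10 genes could be tested, and 5 of them passed in edgeR. Of these Atf3, Ppp1r15a, Chac1 and Trib3 were higher and Asns was lower. Among the 7341 genes tested on counts, 69.1% passed in either direction, 34.8% as higher and 34.3% as lower. The tables differed on Ddit3, which passed on FPKM but not on counts, and on Chac1, which passed on counts but not on FPKM. Atf4, Xbp1, Hspa5 and Herpud1 were not tested on counts, and their changes rest on the FPKM estimates of Cufflinks.

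**Figure D3:**
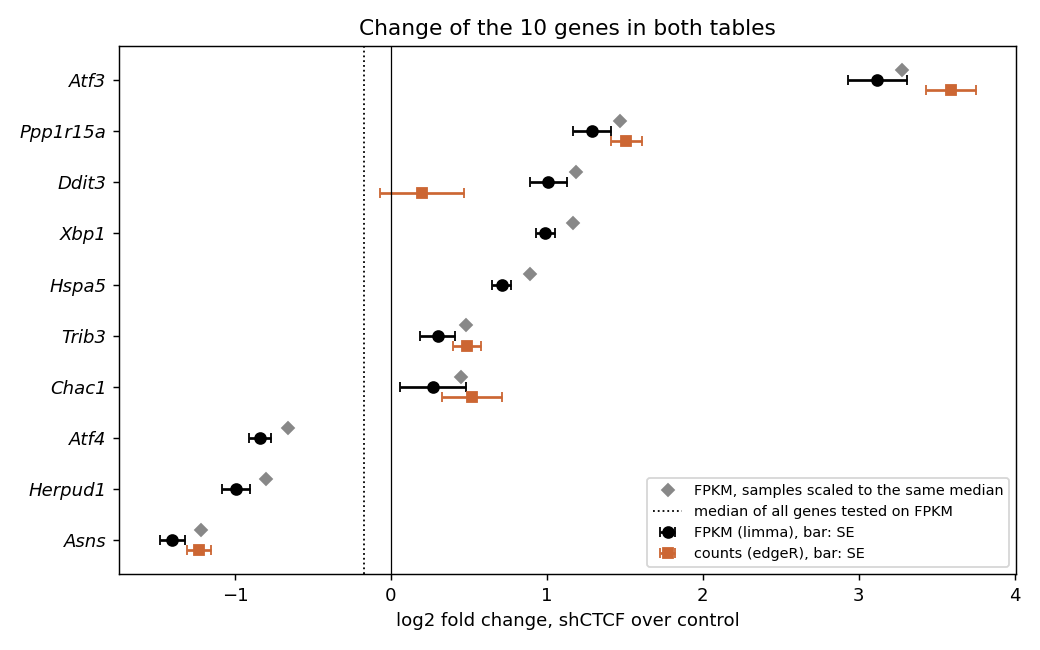
Log2 fold change (shCTCF over control) of the 10 genes from FPKM (limma, circles, SE) and counts (edgeR, squares, SE, 6 genes), with the FPKM value after scaling the samples to equal medians (diamonds). Atf3 (3.12 on FPKM, 3.59 on counts) and Asns (-1.40, -1.23) are the ends of the range, the estimates for Ddit3 differ most (1.01 and 0.20), and the dotted line is the median of all genes on FPKM (-0.17).

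The sensors and kinases above these genes were compared next. Of 11 tested genes of a list of 12, 2 were higher, 5 lower and 4 did not pass in limma, with a median log2 fold change of -0.43. Among all genes 73.0% passed and 44.2% were lower, so these shares were near the background. Eif2ak2, the double-stranded RNA sensor PKR, measured 3.05, 2.42 and 3.43 FPKM in the controls and 21.9, 22.1 and 22.8 FPKM in shCTCF. All shCTCF samples were several times above the controls, with a mean 7.5 times higher and a log2 fold change of 2.56 ± 0.11 (limma adjusted p = 6.9e-07). Eif2ak2 rose in edgeR too, by 2.97 on the log2 scale (adjusted p = 1.8e-10). Impact, which inhibits GCN2, rose from 22.2 ± 4.65 to 73 ± 2.32 FPKM (log2 fold change 1.70, limma adjusted p = 2.0e-05). Impact held at most 9 counted fragments in a sample and was not tested on counts. Gcn1, the activator of GCN2, fell from 35.4 ± 3.38 to 11.7 ± 0.111 FPKM (log2 fold change -1.51, limma adjusted p = 2.5e-06), and Eif2ak4, GCN2 itself, from 3.97 ± 0.46 to 2.07 ± 0.0879 FPKM (log2 fold change -0.69, limma adjusted p = 7.9e-04). The call of Eif2ak4 was lost when the accession row with the highest mean stood for the gene (-0.37, limma adjusted p = 0.435). Eif2ak4 was not tested on counts, where Gcn1 was lower (log2 fold change -1.37, edgeR adjusted p = 2.8e-08).

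The ER sensors and their proteases were lower or did not pass in limma. Ern1 (IRE1) fell from 19.6 ± 0.928 to 11.6 ± 0.577 FPKM (log2 fold change -0.71, limma adjusted p = 8.6e-05), while Ern2, its paralog, was listed at 0 in every sample. Eif2ak3 (PERK) was at 17.1, 17.6 and 16.6 FPKM in the controls and 12.4, 15.5 and 15.5 FPKM in shCTCF, without overlap but with a log2 fold change of -0.24 that did not pass (limma adjusted p = 0.065). Atf6 was at 30.7 ± 2.56 and 31.5 ± 1.67 FPKM (log2 fold change 0.04, limma adjusted p = 0.692), although it was higher in edgeR (0.23, adjusted p = 0.0209). Its relative Atf6b, which is thought to oppose it, fell from 43.2 ± 5.06 to 25.8 ± 1.01 FPKM (log2 fold change -0.72, limma adjusted p = 2.3e-04). Of the Golgi proteases that cut ATF6 free, Mbtps1 fell from 29.4 ± 0.514 to 19.8 ± 0.559 FPKM (log2 fold change -0.55, limma adjusted p = 1.3e-04) and Mbtps2 did not pass in limma (5.86 ± 1.95 and 3.96 ± 0.328 FPKM, adjusted p = 0.107) but passed as lower in edgeR (log2 fold change -0.45, adjusted p = 0.03). Control replicate 2 was the low control for Mbtps2, at 3.61 FPKM against 6.91 and 7.06, and without it the log2 fold change was -0.69 (limma adjusted p = 2.4e-04). The haem-regulated kinase Eif2ak1 was at 29.3 ± 3.68 and 25.6 ± 0.383 FPKM (limma adjusted p = 0.142), and without control replicate 2 it passed as lower (log2 fold change -0.28, limma adjusted p = 0.00127).

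Genes of the eIF2 complex, its exchange factor eIF2B and the eIF2alpha phosphatases, listed with Eif2a and Dnajc3, were lower where they passed on FPKM. Eif2a and Dnajc3 encode no subunit of these. Eif2a was lower (log2 fold change -0.59, limma adjusted p = 2.2e-04) and Dnajc3 did not pass (limma adjusted p = 0.0515). Of 12 tested, 9 were lower and 3 did not pass in limma (against 44.2% lower among all genes), with a median log2 fold change of -0.41 (against -0.17). With samples brought to equal medians 7 were lower and 1 was higher, against 3606 lower and 3482 higher of all 9976 genes. Eif2b3 (27 ± 2.14 to 9.01 ± 0.823 FPKM, limma adjusted p = 5.1e-06) and Eif2b4 (32.8 ± 1.73 to 18.8 ± 1.33 FPKM, limma adjusted p = 6.7e-05) encode subunits of eIF2B, the target that phosphorylated eIF2 blocks. Eif2s3x, the gamma subunit of eIF2, fell from 57 ± 2.43 to 23.8 ± 1.08 FPKM (log2 fold change -1.22, limma adjusted p = 2.6e-06). Ppp1r15b, the constitutive counterpart of Ppp1r15a, was at 41.6 ± 3.35 and 48.1 ± 3.27 FPKM and did not pass in limma (adjusted p = 0.0613), whereas it passed as higher in edgeR (log2 fold change 0.43, adjusted p = 4.3e-04).

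Downstream of ATF4 and CHOP the genes were split, as the 10 genes were. Of 12 tested genes of a list of 16, 6 were higher and 6 lower in limma (against 28.8% and 44.2% of all genes), and the median log2 fold change was 0.03. Sesn2, a stress-induced inhibitor of mTORC1, rose from 22.8 ± 3.45 to 72.3 ± 6.43 FPKM (log2 fold change 1.63, limma adjusted p = 8.4e-06), and Nupr1, a stress-induced chromatin protein, from 70.9 ± 7.36 to 184 ± 16.6 FPKM (1.36, limma adjusted p = 8.2e-06). Cebpb, a bZIP partner of ATF4 and CHOP, rose from 75.1 ± 7.51 to 154 ± 9.22 FPKM (log2 fold change 1.02, limma adjusted p = 2.0e-05). In contrast Ddit4, another mTORC1 inhibitor, fell from 149 ± 9.8 to 43.2 ± 2.18 FPKM (log2 fold change -1.76, limma adjusted p = 5.7e-07). Eif4ebp1, an inhibitor of translation, fell from 237 ± 22.4 to 104 ± 5.05 FPKM (-1.18, limma adjusted p = 7.0e-06), and Cebpg, the other C/EBP partner listed, from 34.9 ± 7.72 to 15.6 ± 2.15 FPKM (-1.10, limma adjusted p = 6.5e-04). On counts 3 of 10 tested genes of this list were higher and 3 lower in edgeR, near the 34.8% and 34.3% of all genes.

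Most amino acid genes that ATF4 is known to induce were lower on FPKM, as Asns was. Of 16 tested genes of a list of 19, 11 were lower, 3 higher and 2 did not pass in limma (against 44.2% lower and 28.8% higher among all genes), with a median log2 fold change of -0.71. On counts 6 of 13 tested were lower and 2 higher in edgeR (against 34.3% and 34.8% of all genes), with a median of -0.28. The 3 largest decreases were those of the mitochondrial enzymes Shmt2, Pycr1 and Gpt2. Shmt2, which splits serine into glycine and a one-carbon unit, measured 214, 255 and 218 FPKM in the controls and 33.8, 37.4 and 35 FPKM in shCTCF. The groups were far apart, with a mean 6.47 times lower and a log2 fold change of -2.66 ± 0.08 (limma adjusted p = 1.7e-07). No fragment was counted for Shmt2 in any sample, so its decrease rests on FPKM alone. Pycr1, the last enzyme of proline synthesis, fell from 18.7 ± 1.28 to 2.32 ± 0.17 FPKM (log2 fold change -2.57, limma adjusted p = 3.2e-07). Gpt2, a mitochondrial alanine transaminase, fell from 33.8 ± 3.63 to 6.44 ± 0.368 FPKM (log2 fold change -2.22, limma adjusted p = 7.3e-07).

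The genes that rose in this list were the transporters Slc38a2 and Slc1a5 and the first enzyme of serine synthesis, Phgdh. Slc38a2, a carrier of small neutral amino acids, went from 64.6 ± 4.8 to 121 ± 2.9 FPKM (log2 fold change 0.90, limma adjusted p = 1.4e-05). Its log2 fold change on counts was -0.44 (edgeR adjusted p = 0.203), from only 5 to 53 fragments per sample. Slc1a5, a glutamine carrier, went from 58.3 ± 2.7 to 78.4 ± 0.624 FPKM (0.42, limma adjusted p = 4.2e-04). Phgdh went from 115 ± 6.21 to 149 ± 3.14 FPKM (0.37, limma adjusted p = 8.7e-04), while Psat1 and Psph, the next steps of the same pathway, were lower at -0.89 and -1.17 (limma adjusted p = 5.2e-06 and 4.2e-05).

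Aminoacyl-tRNA synthetases load amino acids onto tRNAs, and many of their genes are targets of ATF4. All 20 cytosolic synthetase genes tested were lower in limma, against 44.2% of all genes, with no overlap between the groups for any of the 20 and a median log2 fold change of -0.86. The range ran from -1.95 in Vars to -0.41 in Farsb. Vars, for valine, fell from 124 ± 16.7 to 31.2 ± 0.488 FPKM (limma adjusted p = 1.3e-06), Eprs, for glutamate and proline, from 198 ± 2.97 to 72.7 ± 4.41 FPKM (log2 fold change -1.43, limma adjusted p = 8.3e-07), and Mars1, for methionine, from 80.8 ± 6.03 to 30.1 ± 1.68 FPKM (-1.39, limma adjusted p = 2.6e-06). Mars1 overlaps Ddit3, and the genes moved in opposite directions on FPKM. After scaling to equal medians 19 of 20 were lower, with Farsb the exception, against 3606 of all 9976 genes. On counts 13 of 14 tested were lower in edgeR, against 34.3% of all genes.

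**Figure D4:**
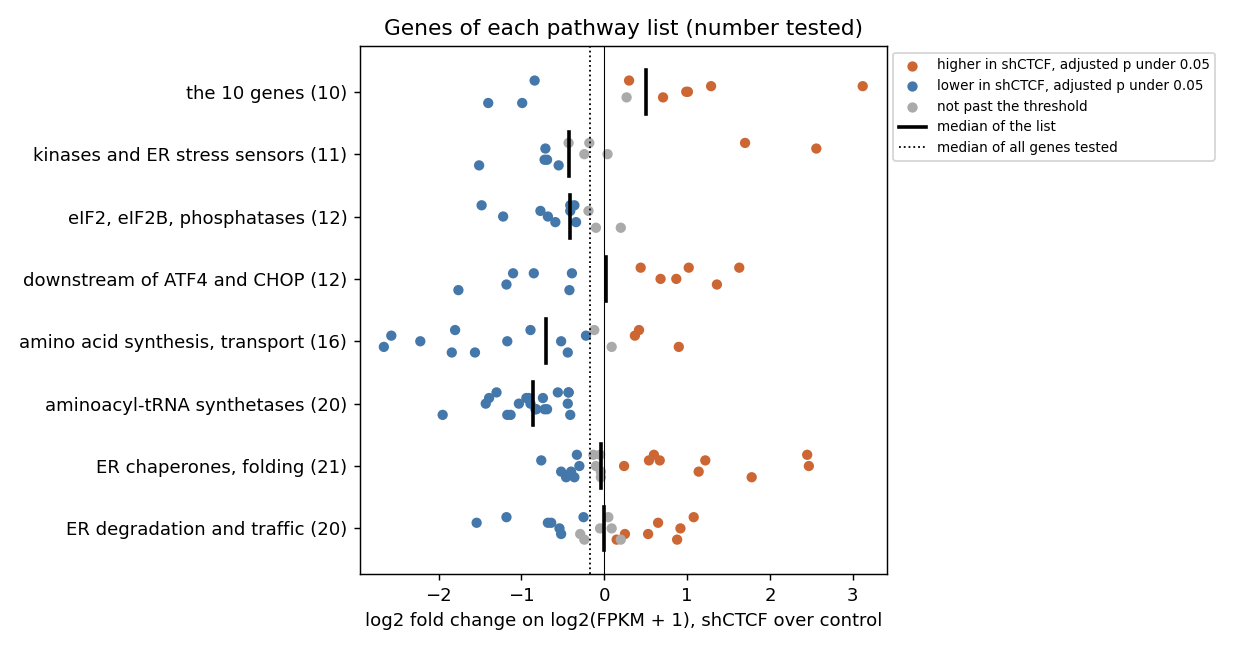
Log2 fold change on log2(FPKM + 1), shCTCF over control, of each tested gene (points) of the 10 stress response genes and of 7 further pathway lists, with the median of each list (bar) and of all 9976 genes tested (dotted line, -0.17). The 20 synthetases lie entirely below 0, while the genes downstream of ATF4 and CHOP and the ER lists lie on either side.

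The ER chaperones and folding enzymes were split like Hspa5 and Herpud1. Of 21 tested, 9 were higher, 7 lower and 5 did not pass in limma (against 28.8% higher and 44.2% lower of all genes), with a median log2 fold change of -0.04. With samples brought to equal medians 9 were higher and 4 lower, against 3482 higher and 3606 lower of all 9976 genes. Both counts of 9 include Fkbp14, which was listed at 0 in all controls and passed the filter only through shCTCF. Dnajb9 (ERdj4), a co-chaperone of BiP and a well known XBP1 target, measured 19, 10.7 and 19.4 FPKM in the controls and 81.2, 89.9 and 107 FPKM in shCTCF. The groups did not overlap, and the log2 fold change was 2.47 ± 0.22 (limma adjusted p = 2.7e-05). Pdia4, a disulfide isomerase, rose from 387 ± 21.4 to 1329 ± 70.4 FPKM (log2 fold change 1.78, limma adjusted p = 3.3e-07), and Calr, the calcium-binding lectin chaperone calreticulin, from 787 ± 62 to 1833 ± 16.2 FPKM (1.22, limma adjusted p = 2.0e-06). Against these, Hyou1, an Hsp70-related exchange factor for BiP, fell from 170 ± 14.1 to 99.9 ± 4.56 FPKM (log2 fold change -0.76, limma adjusted p = 5.2e-05). Creld2, an ER protein induced by stress, was at 107 ± 14.5 and 74.3 ± 5.85 FPKM (-0.52, limma adjusted p = 0.00265). Dnajc10, the disulfide reductase ERdj5, was at 17.3 ± 2.56 and 12.3 ± 1.53 FPKM (-0.46, limma adjusted p = 0.0147), a call that was lost without control replicate 3 or shCTCF replicate 2 (adjusted p 0.0507 and 0.0574) and with samples brought to equal medians (0.0809).

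**Figure D5:**
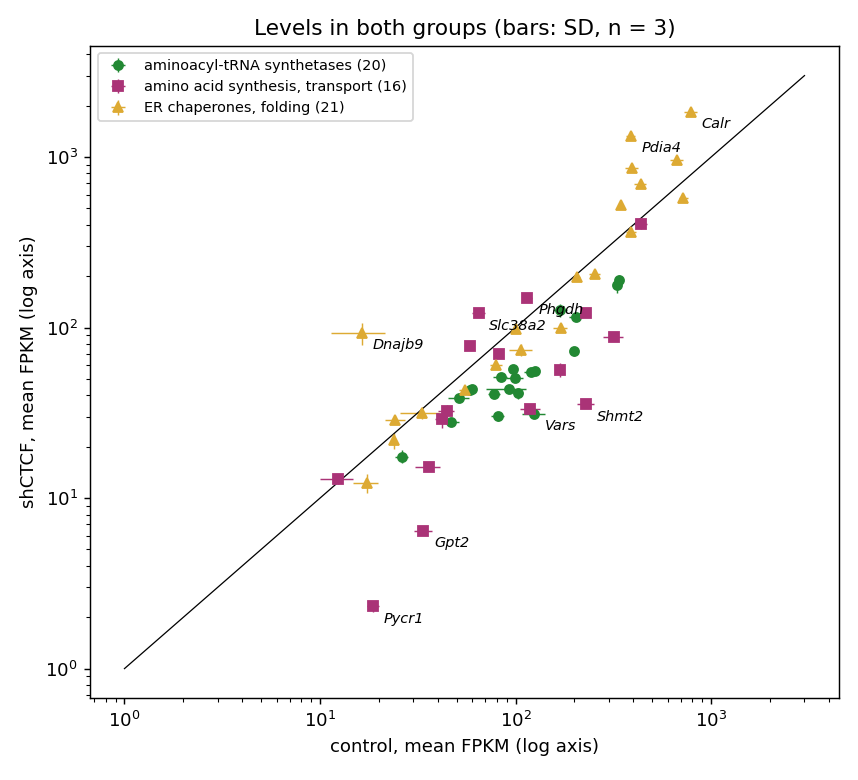
Mean FPKM in control (x axis) and shCTCF (y axis) of the tested synthetases (20), amino acid genes (16) and ER chaperones (21), log axes, bars SD (n = 3), with the line of equal levels. Synthetases lie below the line throughout, Pdia4 (387 to 1329 FPKM) and Calr (787 to 1833 FPKM) lie above it, and Shmt2 (229 to 35.4 FPKM) lies far below it.

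Genes of ER-associated degradation and ER traffic showed the same division. Of 20 tested genes of a list of 22, 7 were higher, 7 lower and 6 did not pass in limma (against 28.8% higher and 44.2% lower of all genes), with a median log2 fold change of 0.00. With samples brought to equal medians 10 were higher and 6 lower, against 3482 higher and 3606 lower of all 9976 genes. Sel1l, the scaffold of the ubiquitin ligase that clears misfolded ER proteins, rose from 49 ± 0.424 to 105 ± 1.44 FPKM (log2 fold change 1.08, limma adjusted p = 1.6e-06), and Edem1, which helps to select glycoproteins for degradation, from 31.8 ± 0.837 to 59.3 ± 3.21 FPKM (0.88, limma adjusted p = 1.2e-05). Its relatives went the other way. Edem2 fell from 39.4 ± 1.26 to 16.9 ± 0.643 FPKM (log2 fold change -1.18, limma adjusted p = 2.9e-06) and Edem3 from 33 ± 3.2 to 20.2 ± 1.18 FPKM (-0.68, limma adjusted p = 2.7e-04). The lectin gene Os9 rose from 46.6 ± 5.04 to 89 ± 0.638 FPKM (0.92, limma adjusted p = 2.9e-05). Its log2 fold change on counts was 0.00 (edgeR adjusted p = 0.996), from only 7 to 16 fragments per sample. Sec24d, a coat protein of vesicles that leave the ER, fell from 47.2 ± 4.56 to 15.7 ± 2.03 FPKM (-1.54, limma adjusted p = 8.9e-06).

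Over the 7 lists, 112 of 122 genes were tested and 92 passed in limma, 27 as higher and 65 as lower, against 73.0%, 28.8% and 44.2% of all genes. The 92 and the 27 include Fkbp14, which passed the filter only through shCTCF. Of those 92, 68 were also tested on counts, and for 3 of them (Atf5, Bcl2l11 and Slc38a2) the fold change on counts had the opposite sign. None of these 3 passed in edgeR (adjusted p 0.955, 0.0594 and 0.203). Each held at most 53 counted fragments in a sample, so their signs on counts rest on few fragments. Impact, Eif2ak4, Mbtps1, Eif2b3, Eif2b4, Cebpb, Shmt2, Eprs, Farsb and Edem3 were not tested on counts, and their changes rest on FPKM alone.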

How the data were processed

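RNA-seq of 6 samples labelled FGSC (3 control, 3 shCTCF, grouped by the labels) was used, and none was left out. The authors trimmed reads of stranded mRNA libraries and aligned them to mm9 with HISAT2. The deposited counts are whole fragments per RefSeq transcript accession, made by the authors with featureCounts 1.6.2 without use of the strand, and fragments over exons of several accessions were not assigned. The deposited FPKM values were estimated by the authors with Cufflinks 2.2.1 and normalized for depth. Each table was analysed as deposited, and 0 value columns lacked a sample.

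Accessions were matched to symbols with a RefSeq gene table (GRCm38.p6, names only), which found 41186 of 41388 accessions with counts and 41685 of 41876 FPKM rows, and unmatched accessions held at most 0.603% of counts and 0.425% of FPKM. Values were summed per symbol. FPKM of genes with a mean of at least 1 was tested as log2(FPKM + 1), a scale that understates changes of low genes, with limma 3.58.1 (trend), and counts with edgeR 4.0.16 (quasi-likelihood, TMM, filterByExpr) in R 4.3.3. Tests were two-sided and adjusted over all genes tested (Benjamini-Hochberg, threshold 0.05), since an exact permutation test of 3 against 3 samples cannot go below 0.1. In the smallest library 3 counts were 1.779 CPM of the total and in the largest 0.426, which covers counting error only.

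The 10 genes and the lists were chosen with earlier results of these data known, and the lists are thus no independent evidence. Named from each list were, among genes past the threshold with no overlap and at least 5 FPKM in the higher group, the 3 with the largest rise and the 3 with the largest fall, besides the 10 genes, Ctcf, the markers and every sensor and kinase of the first list. Psat1, Psph and Ppp1r15b, and the genes whose sign differed on counts, were named after their values were seen. Same-numbered replicates did not deviate together (correlations -0.041, 0.018 and 0.0395), so the numbers were not taken as a pairing. Scripts were tested on simulated data. Alternatives included other scalings, filters and pseudocounts, DESeq2 1.42.0, a replicate block and the omission of each sample.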

Additional observations from a re-analysis of the deposited data

How the results depend on the processing

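Over 15 alternatives on FPKM and 11 on counts, 6000 to 8075 and 4610 to 5800 genes were called, and the log2 fold change of Ctcf on FPKM lay between -6.44 and -4.42. Omission of 1 replicate each gave 8 to 9 of the 10 genes called on FPKM and 4 to 5 on counts, 6577 to 7919 genes in all on FPKM and 4610 to 5662 on counts, and 87 to 101 genes of the pathway lists. With samples scaled to the same median, 49.1% of the calls on FPKM were higher in shCTCF, against 39.5% without. With counts scaled by library size only, 41.5% were higher, against 50.3% with TMM. For the 10 genes, 203 of 216 values stayed on their side of the threshold in the same direction, and the other 13 kept the direction but missed the threshold, 8 for Trib3 on FPKM and 5 for Chac1 on counts. Besides the omitted samples, these were for Trib3 no filter, quantile normalization, limma without trend and the highest accession row (limma adjusted p 0.0663, 0.0522, 0.0569 and 0.0564) and for Chac1 scaling by library size only (edgeR adjusted p 0.119). Of 613 values of other named genes 603 kept both, and 2 turned direction, namely Eif2ak1 with samples scaled to the same median (0.00, limma adjusted p 0.992) and Atf6 without control replicate 2 (-0.03, limma adjusted p 0.674). With each replicate omitted in turn, Atf6 lay between -0.03 and 0.08. Atf6 passed as higher with samples scaled to the same median (0.22, limma adjusted p 0.0397), and Dnajc10 missed the threshold with quantile normalization as well (-0.29, limma adjusted p 0.0761). The cause of these shifts was not tested.

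With the replicate number as a block, 7137 genes were called on FPKM and 4889 on counts, 9 of the 10 genes on FPKM, 5 on counts and 91 genes of the lists, and Ctcf changed by -5.12. In the pairing check 2 of 6 samples correlated best with their own number. The block changed no call of the 10 genes. The few counts of Ddit3 (at most 33 fragments in a sample) and of Atf4, Xbp1, Hspa5 and Herpud1, which had too few for a test, go with 83.6% to 100% of exon bases shared between accessions, over which fragments were not assigned.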

Other observations

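Of the 122 genes of the pathway lists, 10 were under the filter and are given here as values, without a test. Fgf21, a stress hormone that ATF4 induces, was at 1.28, 1.91 and 0.917 FPKM in the controls and 0.107, 0.117 and 0 in shCTCF. Gdf15, another secreted product of the response, was at 0, 0 and 0.0629 FPKM in the controls and 0.146, 0.24 and 0.129 in shCTCF. Tnfrsf10b, a death receptor induced by CHOP, was at 0.117, 0.114 and 0.0547 FPKM in the controls and 0.318, 0.209 and 0.168 in shCTCF. Vldlr, Cth and Slc7a3 stayed under 1 FPKM in every sample, and Ern2, Cbs, Derl3 and Kdelr3 were listed at 0 in every sample.

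Fkbp14, an ER prolyl isomerase, was listed at 0 in all 3 controls and at 4.18, 4.62 and 4.64 FPKM in shCTCF. It passed the filter of a mean of 1 FPKM only through shCTCF, so its limma call carries no weight. On counts it held 0, 0 and 0 fragments in the controls and 1, 0 and 4 in shCTCF, too few for a test. Being under 5 FPKM, it lies outside the rule for named genes, and it was chosen after its values were seen.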
